A study of Homo sapiens with 8 samples.

Results

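The genes described here are 43 liver genes of the coagulation and complement cascades, chosen by symbol, of which 18 belong to coagulation and fibrinolysis, 24 to complement, and 1, AHSG (fetuin-A, a plasma carrier protein), to neither. They were looked up in RNA-seq data of HepG2 cells, an established hepatocarcinoma line that is a single line and still makes many plasma proteins. Cultures received either the DMSO vehicle (0.2% per the labels) or EZHi, which is UNC1999 together with valemetostat tosylate, each at 1 µM, and were harvested on day 4, with libraries numbered 1 to 4 in each group. Because both inhibitors of EZH1 and EZH2 were always given together, their effects cannot be told apart here. Rows for 41 of the 43 genes were found among 25603 genes in the table (KLKB1 and C9 were not analysed here), and 37 were tested. These comprised 16 coagulation genes, 20 complement genes and AHSG.

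Coagulation is a chain of serine proteases that ends with thrombin cutting fibrinogen into fibrin, and plasmin later dissolves the clot. Complement is a second protease chain of blood, started by antibody, by sugars on microbes or by spontaneous turnover of C3, which ends with a pore of terminal components in the target membrane. Hepatocytes secrete most of the soluble proteins of both chains, and many of them belong to the acute-phase response. EZH1 and EZH2 are the enzymes of PRC2 that methylate lysine 27 of histone H3, a mark of silenced genes.

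Expression is given as the deposited length-corrected log2 value, in which a difference of 1 is a doubling. Levels of different genes are compared as estimated FPKM, the same value on a linear scale per transcript length. The length behind it averages all annotated transcripts of a gene, short ones included, so ranks and ratios between genes depend on that average. The read depth of the libraries is unknown, since the values carry no counts, so no interval for counting error can be given. The limma test took genes whose estimated FPKM averaged 0.1 or more over the 8 libraries, and a gene is described as called, or as having risen or fallen, at a Benjamini-Hochberg adjusted p under 0.05 over all 20153 genes tested. Changes are EZHi minus vehicle ± SE (n = 4 libraries per group). Libraries of equal number deviated together in both groups, so the adjusted p of a second limma fit, with the replicate number as a block, is given beside the first where it changes a call. The labels number the libraries without saying what a number stands for, and the p-values measure the spread between these libraries.

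The levels spanned a wide range. Estimated FPKM averaged at least 100 for 10 of the 41 genes, from 10 to 100 for 15, from 1 to 10 for 8, from 0.1 to 1 for 4, and under 0.1 for 4. By this measure the gene at the top was C3, the component on which all complement pathways converge, at 3347 ± 588 estimated FPKM in vehicle and 3573 ± 664 in EZHi (mean ± SD, n = 4). It ranked 9 among all genes of the table. Annotated transcripts averaged 1564 bases for C3 (28 transcripts) and 1465 for AHSG (3 transcripts), and the order of the 2 genes depends on such lengths. AHSG followed at 2033 ± 652 in vehicle and 1761 ± 465 in EZHi. The next genes were FGG and FGA (fibrinogen chains), CLU (clusterin), F2 (prothrombin), PROC (protein C), VTN (vitronectin), FGB (the third fibrinogen chain) and F10 (factor X). At the other end, F9 (factor IX), C2, C6 and CFB (factor B) averaged between 0.0146 and 0.0531 estimated FPKM and were not tested. The value of C6 lay between 0.15 and 0.33 in vehicle and between 0.38 and 0.92 in EZHi, while the remaining 3 overlapped between groups. MASP1 was the lowest gene tested, and it passed the filter through the EZHi libraries only.

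**Figure D1:**
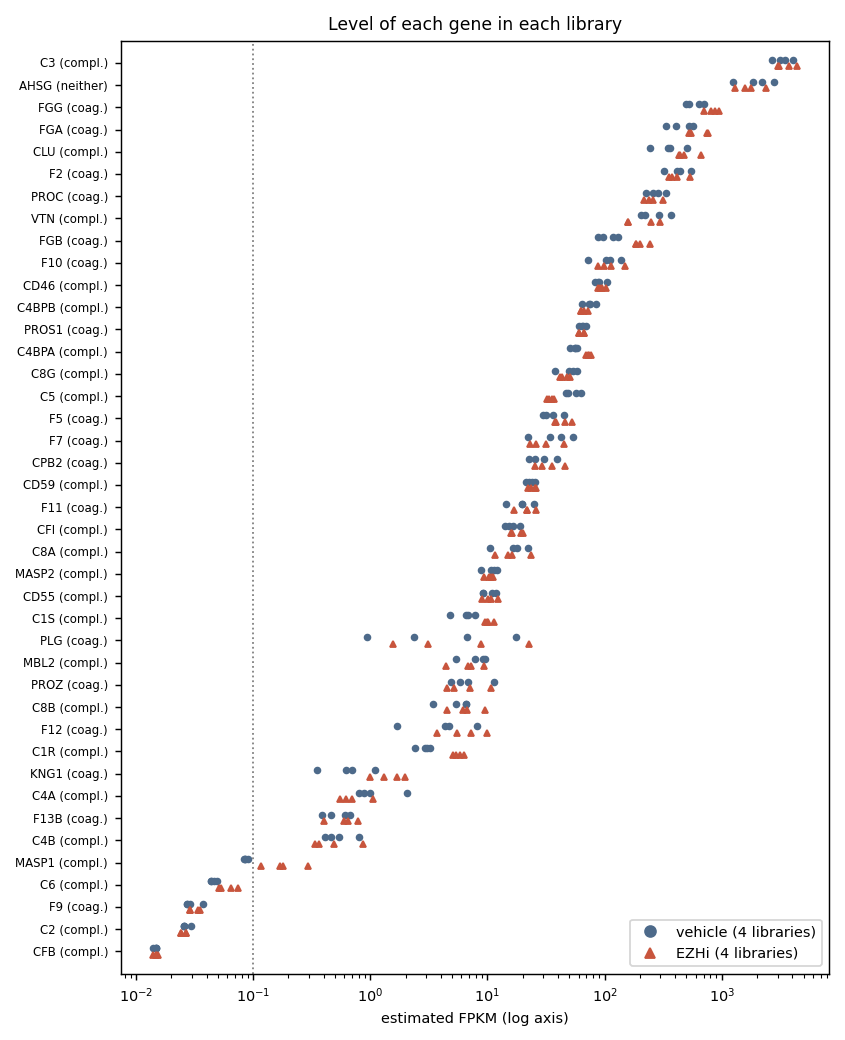
Estimated FPKM (log axis) of the 41 genes in each of the 4 vehicle libraries (circles) and 4 EZHi libraries (triangles), ordered by mean, with the list of each gene in brackets and the filter of 0.1 as a dotted line. C3 is at the top and CFB at the bottom, and all 4 vehicle libraries of MASP1 lie below the filter.

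Across the 37 genes tested, 7 were called higher and 1 lower in EZHi-treated cells, whereas 8.85% of all genes tested rose and 4.27% fell. MASP1 is one of the 7, but it could enter the test only by being higher in EZHi, so it is described below without a test. The other 6 were FGB, FGG and KNG1 of coagulation and C1R, C1S and C4BPA of complement, and the gene that fell was C5. With the replicate block the counts were 14 higher (13 without MASP1) and 5 lower, against 14.9% and 15.1% of all genes. The block added FGA, F5, F12, PLG, CPB2, C8B and CLU to the higher genes and F7, C4A, C4BPB and VTN to the lower ones, and all 8 earlier calls held in it. A further 18 genes were called in neither fit. EZHi and vehicle values were fully separated for 6 of the 37 genes (FGB, C1R, C1S, C4BPA, C5 and, through its way into the test, MASP1), or 5 without MASP1, against 18.6% of all genes tested. EZHi was above vehicle in all 4 pairs of equal number for 18 genes (17 without MASP1) and below it in all 4 for 5, where the shares of all genes were 20.6% and 24.2%.

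**Figure D2:**
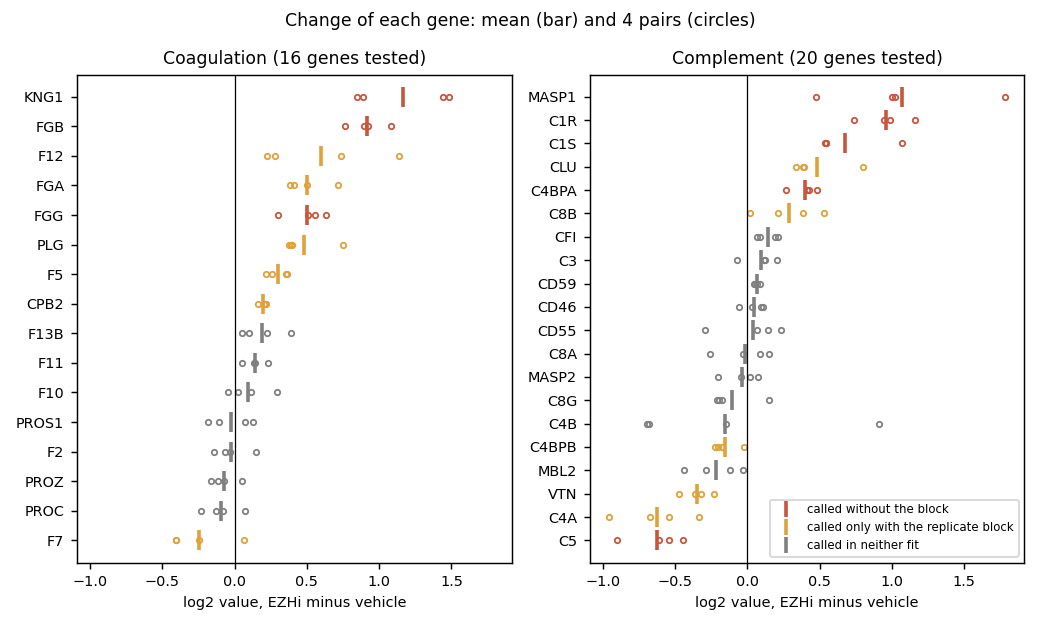
Log2 value of EZHi minus vehicle for the 16 coagulation and 20 complement genes tested, as the mean (bar) and the 4 pairs of equal replicate number (circles), coloured by the fit in which the gene was called. KNG1 and MASP1 have the largest positive means, 1.17 and 1.07, and C5 and C4A the largest negative ones, both -0.63.

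Fibrinogen is the hexamer of paired alpha, beta and gamma chains from which clots are built. The genes of all 3 chains were higher in EZHi in every pair of equal number. The genes lie within 49.957 kb of chromosome 4 (GRCh38), FGB at chr4:154563011-154572807 on the plus strand, FGA at chr4:154583126-154590742 and FGG at chr4:154604134-154612967 on the minus strand. The promoters are shown because the 3 genes moved in the same direction. Each sequence is the 250 bases before the RefSeq start site (GRCh38.p14), read 5′ to 3′ on the strand of the gene, and for FGG the RefSeq start lies inside the GENCODE gene. Capitals mark 2 motifs searched on both strands, CTGGGA (reverse complement TCCCAG), the core of the IL-6 response element of acute-phase genes, and GTTAAT (reverse complement ATTAAC), a half-site of HNF1, a liver transcription factor.
FGA, chr4:154590743-154590992, minus strand: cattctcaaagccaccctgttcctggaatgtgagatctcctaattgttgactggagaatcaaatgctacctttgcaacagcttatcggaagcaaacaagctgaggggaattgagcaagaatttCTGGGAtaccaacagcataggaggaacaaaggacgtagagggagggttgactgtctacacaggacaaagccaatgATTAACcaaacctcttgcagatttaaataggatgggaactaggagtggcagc
FGB, chr4:154562761-154563010, plus strand: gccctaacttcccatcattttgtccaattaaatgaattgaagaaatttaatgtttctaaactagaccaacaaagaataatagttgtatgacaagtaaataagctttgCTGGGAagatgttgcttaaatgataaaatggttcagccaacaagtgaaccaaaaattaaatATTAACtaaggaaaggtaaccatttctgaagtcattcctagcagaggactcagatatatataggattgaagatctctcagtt
FGG, chr4:154612657-154612906, minus strand: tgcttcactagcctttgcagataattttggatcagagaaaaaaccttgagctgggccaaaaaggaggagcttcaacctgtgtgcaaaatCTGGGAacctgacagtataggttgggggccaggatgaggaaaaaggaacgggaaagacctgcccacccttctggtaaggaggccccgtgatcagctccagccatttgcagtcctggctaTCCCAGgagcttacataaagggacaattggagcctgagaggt
The FGA and FGB promoters each held 1 match to each motif, and the FGG promoter held 2 matches to CTGGGA and 0 to GTTAAT in this window. Of 34943 RefSeq promoters of the same length, 28.7% held CTGGGA and 6.24% held GTTAAT. Among the 31 genes described here with a listed promoter the counts were 16 and 10. The shares are per promoter, whereas a gene was counted if any of its promoters held the motif, so the 2 cannot be compared directly. A match is a match of letters and was not examined as a binding site.

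FGB, the beta chain, had log2 values of 11.28, 11.14, 11.57 and 11.70 in vehicle libraries 1 to 4 and 12.20, 12.22, 12.33 and 12.60 in EZHi libraries 1 to 4. Every EZHi library was above every vehicle library, and FGB rose by 0.92 ± 0.14 on the log2 scale, or 1.89-fold (limma adjusted p = 0.00167). The gamma chain gene FGG went from 13.64, 13.71, 14.16 and 14.01 to 14.15, 14.34, 14.45 and 14.56. Its groups overlapped only in that EZHi library 1 was level with vehicle library 3, and it rose by 0.50 ± 0.13 (limma adjusted p = 0.0342). Of 8 fits without the block that each left out a library, FGG was called in those without vehicle library 3 or EZHi library 1 and missed the threshold in the other 6 (limma adjusted p up to 0.102). For FGA, the alpha chain, the values were 13.34, 13.07, 13.83 and 13.72 in vehicle and 13.72, 13.79, 14.24 and 14.23 in EZHi. FGA differed by 0.50 ± 0.19, nearly the same amount as FGG, with a limma adjusted p of 0.114 that became 0.000413 with the block. On the per-length scale FGB was the lowest of the 3 chains. The ratio of FGB to FGG averaged 0.183 ± 0.0180 in vehicle and 0.244 ± 0.0163 in EZHi (mean ± SD, n = 4), with no overlap between 0.167 to 0.202 and 0.229 to 0.259. The ratio of FGG to FGA averaged 1.32 ± 0.160 and 1.31 ± 0.133.

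**Figure D3:**
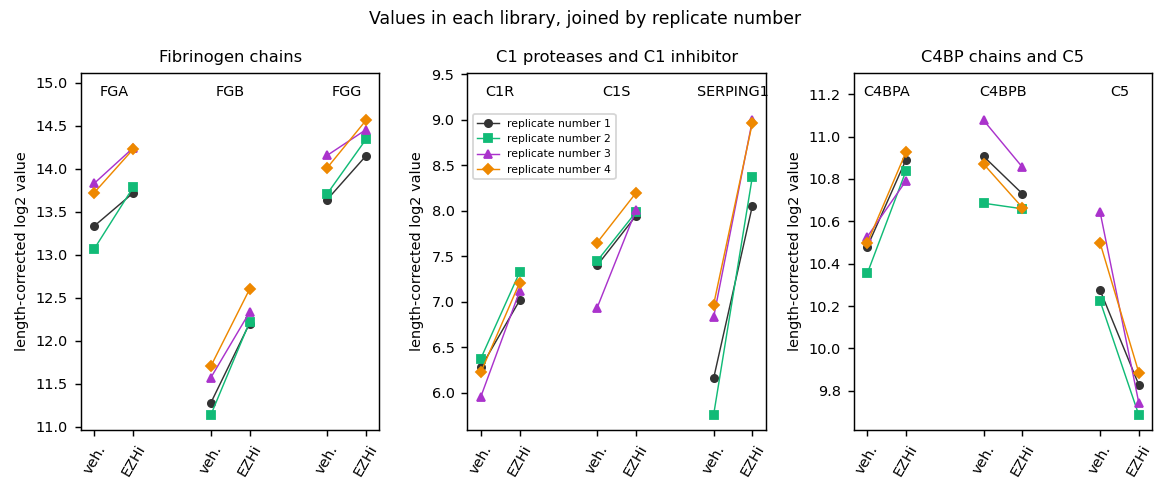
Length-corrected log2 values in each library for the fibrinogen chains, for the C1 proteases with the C1 inhibitor gene SERPING1, and for the C4BP chains with C5, with lines joining vehicle and EZHi libraries of equal replicate number. All lines of FGA, FGB, FGG, C1R, C1S, SERPING1 and C4BPA rise and all lines of C4BPB and C5 fall.

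The contact and kinin genes, which start clotting on negatively charged surfaces and release bradykinin, were higher in EZHi in all pairs, and 1 of the 3 tested was called. KNG1 encodes kininogen, the precursor of bradykinin. It was at 4.16, 3.18, 4.81 and 3.99 in vehicle and 5.05, 4.66, 5.65 and 5.44 in EZHi, so that only vehicle library 3 reached into the EZHi range. KNG1 rose by 1.17 ± 0.33, or 2.24-fold (limma adjusted p = 0.0443), from 0.692 ± 0.306 to 1.49 ± 0.430 estimated FPKM. Its call was kept only without vehicle library 3 or EZHi library 2 when each library was left out in turn, with limma adjusted p up to 0.122 in the other 6 fits, and it held in all fits with the block. Its exons share 14.1% of their bases with the antisense gene HRG-AS1, and counting ignored strand, so reads from these shared bases cannot be assigned to either gene. F12 (factor XII, which starts the contact pathway) read 6.92, 5.44, 7.71 and 6.80 in vehicle and 7.14, 6.58, 7.99 and 7.54 in EZHi. Library 2 was far below the others in vehicle and the groups overlapped widely, and F12 differed by 0.60 ± 0.45 (limma adjusted p = 0.450, and 0.0134 with the block), or by 0.17 without vehicle library 2, 0.37 without EZHi library 3 and 0.93 without vehicle library 3. F11 (factor XI) differed by 0.14 ± 0.17 and was called in neither fit.

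None of the 6 vitamin K-dependent genes tested was called without the block. This family carries gamma-carboxylated glutamates that bind calcium and membranes, and it holds proteases of the chain as well as the anticoagulants protein C and protein S. F2 was at 13.39, 13.01, 13.77 and 13.46 in vehicle and 13.24, 13.15, 13.74 and 13.39 in EZHi, a difference of -0.023 ± 0.17. The libraries of F2 differed by number instead, with library 3 highest and library 2 lowest in both groups. F7 (factor VII, the partner of tissue factor) was at 9.79, 9.15, 10.41 and 10.07 in vehicle and 9.39, 9.21, 10.16 and 9.67 in EZHi. F7 was lower in EZHi in 3 of 4 pairs and differed by -0.25 ± 0.27 (limma adjusted p = 0.629, and 0.0411 with the block), but the block call was kept in only 1 of 6 further blocked fits, each with another scaling or without 1 replicate number. Without the block the F7 difference ranged from -0.48 (without vehicle library 2) and -0.43 (without EZHi library 3) to -0.12 (without EZHi library 2) and -0.062 (without vehicle library 3). F10, PROC, PROS1 (protein S) and PROZ (protein Z) differed by between -0.093 and 0.095. F7, F10 and PROZ are neighbours within 66.599 kb of chromosome 13, and the ratio of F7 to F10 averaged 0.352 ± 0.0367 in vehicle and 0.277 ± 0.0180 in EZHi, which was lower in all 4 pairs.

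Factor V, the cofactor that speeds the formation of thrombin, is encoded by F5. Its values were 9.66, 9.58, 10.17 and 9.85 in vehicle and 9.92, 9.94, 10.39 and 10.21 in EZHi. The shift was of similar size in each pair, between 0.22 and 0.36, and smaller than the range of either group. F5 differed by 0.30 ± 0.15 (limma adjusted p = 0.229, and 0.00165 with the block).

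The genes of clot stabilisation and lysis were PLG (plasminogen, the precursor of plasmin), CPB2 (an inhibitor of fibrinolysis known as TAFI) and F13B (the carrier subunit of factor XIII). PLG had the widest spread of the 37 genes, at 5.93, 4.58, 8.80 and 7.43 in vehicle libraries 1 to 4 and 6.32, 5.33, 9.17 and 7.82 in EZHi libraries 1 to 4. The order of libraries was the same in both groups, and each EZHi library exceeded the vehicle library of its own number by 0.37 to 0.75. PLG differed by 0.48 ± 0.98 (limma adjusted p = 0.817, and 0.00358 with the block), and without the block its change turned negative when vehicle library 2 (-0.22) or EZHi library 3 (-0.19) was left out. CPB2 was at 9.34, 9.18, 9.98 and 9.60 in vehicle and 9.54, 9.35, 10.19 and 9.82 in EZHi, so the groups overlapped while every pair was higher. It differed by 0.20 ± 0.21 (limma adjusted p = 0.609, and 0.00953 with the block), but by 0.041 without EZHi library 3, by 0.083 to 0.13 without vehicle library 2 or 1, and by 0.32 to 0.35 without EZHi library 2 or vehicle library 3. F13B differed by 0.19 ± 0.23 and was called in neither fit. AHSG, outside both cascades and 96029 bases from KNG1 on chromosome 3, was at 15.78, 14.97, 16.14 and 15.54 in vehicle and 15.47, 15.03, 15.91 and 15.30 in EZHi. It differed by -0.18 ± 0.25, with limma adjusted p = 0.711, or 0.0871 with the block.

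In the complement list, both proteases of the C1 complex, which start the classical pathway, rose. C1R, which activates C1S, was at 6.28, 6.37, 5.95 and 6.22 in vehicle and 7.01, 7.32, 7.12 and 7.21 in EZHi. The groups did not overlap, and C1R rose by 0.96 ± 0.11, or 1.94-fold (limma adjusted p = 0.000452), from 2.90 ± 0.347 to 5.62 ± 0.515 estimated FPKM. C1S, which cleaves C4 and C2, was at 7.40, 7.45, 6.93 and 7.65 in vehicle and 7.94, 7.99, 8.0 and 8.20 in EZHi. Vehicle library 3 was lowest, no EZHi library fell below 7.94, and C1S rose by 0.67 ± 0.14, or 1.60-fold (limma adjusted p = 0.0119). The ratio of C1S to C1R averaged 2.24 ± 0.313 in vehicle and 1.83 ± 0.174 in EZHi and fell in all 4 pairs, although the ranges overlapped slightly (1.97 to 2.69 and 1.58 to 1.98). C1R and C1S lie 9181 bases apart on chromosome 12, and 11.6% of the exon bases of C1R are shared with its neighbour C1RL, whose values are given below.

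C4A and C4B, the copies of the C4 gene on chromosome 6, are near-identical. The paper set a minimum alignment quality for counting, so reads that fit both copies equally may be lost. The values of both genes are therefore uncertain. Over 5232 coding bases they differed at 13 (99.8% identical), and 87.9% of the 100-base windows of C4B also occurred in C4A. The window below is shown because it holds 5 of these bases, in capitals. Both windows lie in a coding exon of the GENCODE transcripts (GRCh38), on the plus strand.
C4A, chr6:31996052-31996111: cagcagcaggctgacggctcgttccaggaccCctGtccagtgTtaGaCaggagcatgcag
C4B, chr6:32028790-32028849: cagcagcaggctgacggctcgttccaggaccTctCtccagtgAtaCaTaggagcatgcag
C4A was at 4.66, 4.35, 4.50 and 5.71 in vehicle and 3.99, 3.81, 4.17 and 4.76 in EZHi. It was lower in all 4 pairs, and library 4 was the highest in both groups. C4A differed by -0.63 ± 0.31 (limma adjusted p = 0.230, and 0.00517 with the block), or by -0.32 without vehicle library 4. C4B differed by -0.15 ± 0.30, with pairs between -0.69 and 0.91, and was called in neither fit. Both averaged near 1 estimated FPKM or below, with C4A at 2.05 in vehicle library 4. Their neighbours C2 and CFB, at 0.0260 and 0.0146 estimated FPKM, share 30.0% and 42.8% of their exon bases with other genes.

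Of the lectin pathway, which recognises sugars, MASP2 and MBL2 were called in neither fit, and MASP1 is described without a test, since it passed the filter on low values only through the EZHi libraries. MASP1, a protease that activates MASP2, was at 1.11, 1.10, 1.12 and 1.20 in vehicle and 2.13, 1.57, 2.90 and 2.20 in EZHi. The vehicle values were flat at a low level and the EZHi values differed among themselves by more than 1 unit. The difference was 1.07 ± 0.22, from 0.0857 ± 0.00290 to 0.190 ± 0.0733 estimated FPKM. MASP2, the protease that cleaves C4, differed by -0.036 ± 0.11. MBL2 (mannose-binding lectin) differed by -0.22 ± 0.24 and was lower in every pair, with limma adjusted p = 0.632, or 0.0718 with the block.

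C5 fell, whereas C3 was called in neither fit. C5 is cleaved to the attractant C5a and to C5b, which starts the membrane pore. C5 was at 10.28, 10.22, 10.64 and 10.50 in vehicle and 9.83, 9.69, 9.74 and 9.89 in EZHi. Every EZHi library was below every vehicle library, with a change of -0.63 ± 0.099 or a ratio of 0.648 (limma adjusted p = 0.00247), from 53.6 ± 7.36 to 34.5 ± 2.13 estimated FPKM. C3 was at 16.31, 16.06, 16.67 and 16.45 in vehicle and 16.23, 16.26, 16.79 and 16.57 in EZHi. The C3 groups overlapped, and C3 differed by 0.093 ± 0.16 (limma adjusted p = 0.780, and 0.356 with the block), with a negative sign when vehicle library 2 (-0.011) or EZHi library 3 (-0.015) was left out. The per-length ratio of C5 to C3 averaged 0.0161 ± 0.00104 in vehicle and 0.00990 ± 0.00176 in EZHi and was lower in all pairs, with no overlap of the groups.

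The terminal component C8 is built from alpha, beta and gamma chains encoded by C8A, C8B and C8G. C8B was at 7.11, 6.46, 7.39 and 7.40 in vehicle and 7.32, 6.85, 7.93 and 7.42 in EZHi. The pairs of C8B differed by between 0.019 and 0.53, with a mean of 0.29 ± 0.26 (limma adjusted p = 0.533, and 0.0431 with the block), and the block call was kept in 2 of 6 further blocked fits. Without the block the difference was 0.079 without vehicle library 2, 0.11 without EZHi library 3 and 0.46 without EZHi library 2. C8A and C8G differed by -0.013 ± 0.25 and -0.11 ± 0.13 and were called in neither fit. C8B lies next to C8A on chromosome 1, and their ratio averaged 0.331 ± 0.0303 in vehicle and 0.407 ± 0.0298 in EZHi, higher in all 4 pairs.

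Among the soluble regulators, C4b-binding protein, which inactivates C4b, is a disulphide-linked assembly of alpha chains (C4BPA) and a beta chain (C4BPB) that holds protein S. C4BPA was at 10.48, 10.35, 10.53 and 10.50 in vehicle and 10.89, 10.84, 10.79 and 10.93 in EZHi. The groups did not overlap, and C4BPA rose by 0.40 ± 0.062, or 1.32-fold (limma adjusted p = 0.00235). C4BPB, 4239 bases away on chromosome 1, was at 10.91, 10.69, 11.08 and 10.87 in vehicle and 10.73, 10.66, 10.86 and 10.66 in EZHi. C4BPB was lower in all 4 pairs and differed by -0.16 ± 0.088 (limma adjusted p = 0.297, and 0.0361 with the block), a block call kept in 1 of 6 further blocked fits, and the difference was -0.093 without vehicle library 3. The per-length ratio of C4BPB to C4BPA averaged 1.34 ± 0.0894 in vehicle, with a range of 1.26 to 1.46, and 0.914 ± 0.0914 in EZHi, with a range of 0.833 to 1.04. Thus the beta chain had the higher per-length value in every vehicle library, and the alpha chain in 3 of 4 EZHi libraries. Which message was the more abundant depends on the transcript lengths used, whereas the shift of the ratio between the groups does not.

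VTN and CLU both encode proteins that keep the terminal complex from entering membranes. VTN was at 12.47, 12.35, 13.21 and 12.86 in vehicle and 11.999, 11.99, 12.90 and 12.63 in EZHi. It was lower in all 4 pairs and differed by -0.35 ± 0.24 (limma adjusted p = 0.418, and 0.00102 with the block), or by between -0.22 and -0.18 without EZHi library 1 or 2 or vehicle library 3. CLU was at 13.12, 12.62, 13.65 and 13.19 in vehicle and 13.46, 13.43, 14.05 and 13.57 in EZHi. CLU was higher in all 4 pairs, with library 2 lowest in both groups, and differed by 0.48 ± 0.21 (limma adjusted p = 0.176, and 0.00180 with the block), or by 0.30 without vehicle library 2. VTN shares 17.3% of its exon bases with another annotated gene. CFI (factor I, the protease that inactivates C3b and C4b) differed by 0.14 ± 0.11. The membrane regulators CD46, CD55 and CD59, which protect host cells from complement, differed by 0.045 ± 0.086, 0.038 ± 0.12 and 0.064 ± 0.079 and were called in neither fit.

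Set side by side without MASP1, 3 of 16 coagulation genes rose and 0 fell, and 3 of 19 complement genes rose and 1 fell. Of all genes tested, 8.85% rose and 4.27% fell. With the block, 8 coagulation genes were higher and 1 lower, and 5 complement genes were higher and 4 lower, beside 14.9% and 15.1% of all genes tested. Without the block, 4 coagulation and 5 complement genes had an unadjusted p under 0.05, shares that lie near the 26.6% of all genes tested. The median change was 0.19 for coagulation and 0.042 for complement (0.038 without MASP1), beside -0.0077 over all genes tested and -0.095 over the 7809 genes with at least 10 estimated FPKM. When single libraries were left out, the coagulation median ranged from 0.031 (without vehicle library 2) and 0.044 (without EZHi library 3) to 0.33 (without vehicle library 3) and 0.34 (without EZHi library 2). The complement median turned negative without vehicle library 2 (-0.012) or EZHi library 3 (-0.028), reached 0.11 without vehicle library 3, and was 0.12 when libraries were centred on genes of at least 10 estimated FPKM. Of the 16 coagulation genes 10 were higher in all 4 pairs and 0 lower in all 4. Of the 19 complement genes without MASP1 7 were higher and 5 lower. The shares of all genes tested were 20.6% higher and 24.2% lower, and the 5 lower complement genes lie near the latter share. Averaged over the list, the coagulation log2 value was 9.61 ± 0.46 in vehicle and 9.90 ± 0.38 in EZHi (SD, n = 4), with pair differences of 0.22, 0.43, 0.21 and 0.29 for numbers 1 to 4. For complement, MASP1 included, the mean was 8.81 ± 0.17 in vehicle and 8.91 ± 0.20 in EZHi. The pair differences were 0.066, 0.10, 0.23 and -0.0024. The coagulation change exceeded the complement change by 0.15, 0.33, -0.012 and 0.30 in pairs 1 to 4, a mean of 0.19 (0.24 without MASP1). The mean fell to 0.082 without vehicle library 2 and to 0.12 without EZHi library 3, and was 0.33 without vehicle library 3. With MASP1 in the list, number 3 was the exception. This negative value depended on MASP1, which alone differed by 1.78 in pair 3. No test was run on the difference between the lists.

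Replicate number took a larger share of the spread than treatment for most of these genes, as it did for most of all genes tested. The libraries followed the order 2, 1, 4, 3 from low to high in both groups, with a median deviation from the vehicle mean of -0.34, -0.041, 0.082 and 0.30 over the 37 genes in vehicle, and from the EZHi mean of -0.21, -0.14, 0.064 and 0.30 in EZHi. Number 2 was the lowest and number 3 the highest in 25 of 37 genes (67.6%), compared with 18.1% of all genes tested. C1R and CD59 had the opposite pattern. The median difference between libraries 3 and 2 was 0.61 in vehicle and 0.52 in EZHi for these genes, and 0.00045 and 0.0035 over all genes tested. Coagulation showed the pattern in 13 of 16 genes and complement in 11 of 20.

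**Figure D4:**
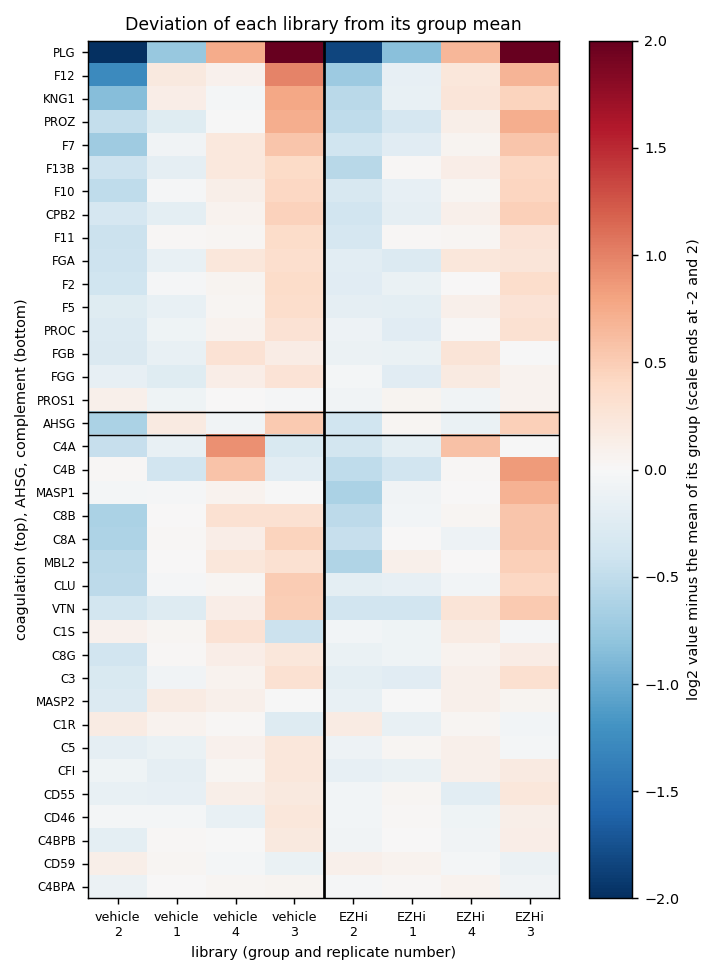
Log2 value of each of the 37 genes in each library minus the mean of its group, with libraries ordered 2, 1, 4, 3 within vehicle and EZHi and the colour scale ending at -2 and 2. Vehicle and EZHi both turn from blue to red in the same order, most strongly for PLG, whose values reach past the scale.

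The sum of squares of each gene was divided among treatment, replicate number and the rest. Replicate number has more degrees of freedom than treatment, so a larger share for it is partly built in. The shares over all genes tested are therefore given beside those of these genes. Replicate number took a median of 78.8% over the 37 genes and treatment 9.08%, compared with 46.5% and 21.3% over all genes tested. The share of number exceeded that of treatment in 29 of 37 genes (78.4%), and in 65.7% of all genes. Number took 87.4% in the median coagulation gene and 70.2% in the median complement gene. Treatment took most of the spread for C1R (92.5%), C4BPA (91.8%), C5 (84.9%), FGB (84.6%), C1S (74.5%), MASP1 (71.9%), FGG (64.6%) and KNG1 (58.6%), and for PLG it took 2.41%. These 8 genes are the ones called without the block, MASP1 included. The treatment share and the test without the block weigh the same difference against the same spread, so this match is largely built in.

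**Figure D5:**
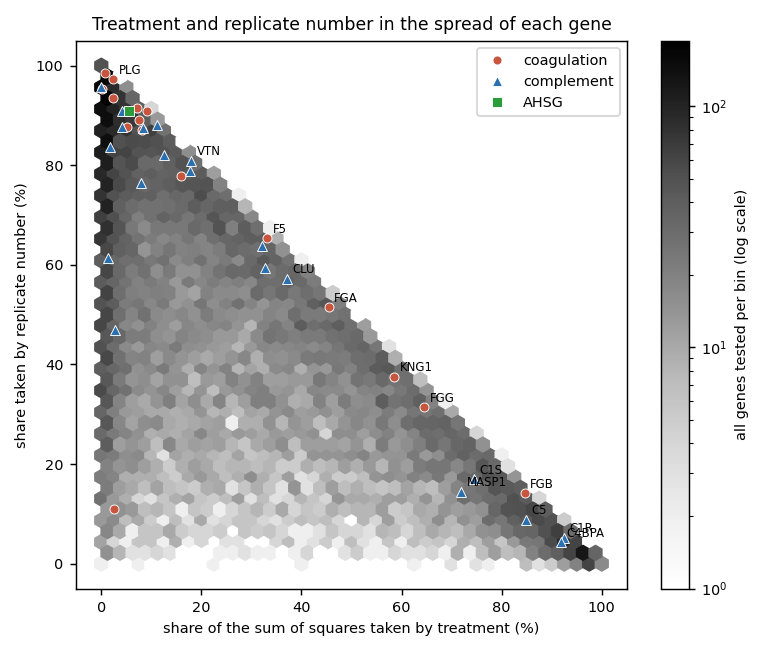
Share of each gene's sum of squares taken by treatment (x axis, %) and by replicate number (y axis, %), for coagulation genes (circles), complement genes (triangles) and AHSG (square) over all genes tested (grey bins, log scale). Most points lie at the upper left, with PLG at 97.3% for number, and C1R and C4BPA lie at the lower right.

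The summed hepatocyte markers moved with the same numbers. The 7 hepatocyte markers, including AFP, ALB and APOA1, summed to 31638, 23757, 46608 and 32689 estimated FPKM in vehicle libraries 1 to 4. In EZHi they summed to 30671, 26095, 42633 and 31467, and both groups were lowest in number 2 and highest in number 3. The largest part was AFP, at a mean of 16199 estimated FPKM over all libraries, against 10106 for ALB. The paper counts Afp among typical progenitor genes. Library 3 exceeded library 2 by 0.66 in vehicle and 0.44 in EZHi for AFP, and by 1.49 and 1.18 for ALB. The sum of the 4 cholangiocyte markers found ran the other way, at 665, 814, 499 and 648 in vehicle and 668, 855, 616 and 660 in EZHi. This run came from KRT19, which was the lower in library 3, with log2 differences from library 2 of -1.23 in vehicle and -0.78 in EZHi, whereas SOX9 was higher in library 3 by 0.23 and 0.42 and EPCAM and KRT7 differed by between -0.20 and -0.034. None of the hepatocyte or cholangiocyte markers was called between EZHi and vehicle without the block. With it, APOA1, APOB and SOX9 were higher and ALB was lower. Whether the make-up or state of the cultures has a part in the number pattern was not tested, and in bulk RNA fewer cells of a type and less RNA per cell cannot be told apart. Of 5 endothelial markers 4 were found, summing to 2.26 to 2.73 in vehicle and 3.43 to 7.22 in EZHi. CDH5 and VWF were called higher and TEK was near 0. PECAM1 differed by 0.042 and was called in neither fit. Its mean was the highest of these markers in vehicle, but below those of VWF and CDH5 in EZHi. The part of endothelial markers in the changes with EZHi was not tested. Of 9 macrophage and blood markers 2 were found, LYZ and CD14, summing to 1212 to 1687 in vehicle and 1087 to 1557 in EZHi. Nearly all of this sum was LYZ, at a mean of 1424 estimated FPKM over all libraries, against 0.983 for CD14. Of 5 stellate and fibroblast markers 4 were found, summing to 32.8 to 42.1 in vehicle and 41.9 to 46.9 in EZHi. None of either list was called without the block.

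With neighbours joined at gaps of up to 200 kb, 19 of the 41 genes formed 7 clusters. All genes of the fibrinogen cluster and of the C1R and C1S cluster were higher in EZHi. In the cluster of the C4b-binding protein genes, C4BPA rose beside C4BPB, which was lower with the block, and CD55, which was called in neither fit. KNG1 rose beside AHSG, which was called in neither fit. The differences between neighbours in the remaining clusters of C8, of factors VII and X with protein Z, and of C4 rested on calls made with the block.

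A wider list of 51 coagulation and complement genes was read in the same fits, of which 33 were found and 27 tested. Without the block 3 of the 27 rose and 0 fell, beside 8.85% and 4.27% of all genes tested, and with it 8 were higher and 3 lower, beside 14.9% and 15.1%. SERPING1, which encodes the C1 inhibitor that blocks C1R, C1S and the contact proteases, was at 6.16, 5.75, 6.83 and 6.97 in vehicle and 8.05, 8.38, 8.99 and 8.97 in EZHi. The groups were more than 1 unit apart, and SERPING1 rose by 2.17 ± 0.30, or 4.51-fold (limma adjusted p = 0.00104), a larger change than that of any of the 37 genes above. VWF, the platelet-binding carrier of factor VIII and an endothelial marker, was at 4.20, 3.91, 4.14 and 3.87 in vehicle and 5.06, 4.86, 5.96 and 6.03 in EZHi. It rose by 1.45 ± 0.26, or 2.73-fold (limma adjusted p = 0.00537). C1RL, a protease related to C1R, was at 11.04, 10.90, 10.99 and 11.11 in vehicle and 11.20, 11.15, 11.34 and 11.45 in EZHi, and it rose by 0.28 ± 0.081 (limma adjusted p = 0.0489). The C1RL call was close to the threshold and was kept in 1 of 8 fits that each left out a library (without EZHi library 2), with limma adjusted p up to 0.131 in the others, and it held in all fits with the block.

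With the block, 5 genes joined the higher side and 3 the lower side, and those named here lie outside the rule for naming and were chosen after their values were seen. The higher genes were F3 (tissue factor), SERPINC1 (antithrombin), A2M (alpha-2-macroglobulin), EPHX1 (an epoxide hydrolase) and COLEC11 (a lectin of complement), with changes of between 0.19 and 0.51. Among the lower genes were TFPI (the inhibitor of the tissue factor pathway) and VKORC1L1 (a vitamin K reductase). SERPINC1, the inhibitor of thrombin, was at 10.92, 10.12, 11.35 and 10.80 in vehicle and 11.31, 10.69, 11.68 and 11.24 in EZHi, lowest in number 2 and highest in number 3 in both groups. It differed by 0.43 ± 0.26 (limma adjusted p = 0.338, and 0.000276 with the block).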

How the data were processed

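The authors mapped paired reads of mRNA libraries to hg38, assigned them to the exons of genes with HTSeq in union mode without strand, and deposited length-corrected log2 values from the regularized log of DESeq2. The submitters' processing notes list HISAT2 2.2.1, HTSeq 0.9.1 and DESeq2 1.40.2. The regularized log shrinks differences of genes with few reads, so changes of low genes are understated, and read depth is unknown. The table is named as FPKM, but its values ran from -6.81 to 19.01 and were used as log2 values, so the planned log transformation was run only as an alternative. Estimated FPKM is the linear value divided by 25.6, the mean normalized read sum of a library in units of 1e6 reads.

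Of 25604 rows, 1 repeated gene was dropped. A mean estimated FPKM of 0.1 or more was required for the test by limma 3.58.1 in R 4.3.3 (trended prior, group only, two-sided, Benjamini-Hochberg over 20153 genes), checked on simulated data. Within a number, deviations from the group means correlated across genes at 0.310, 0.558, 0.634 and 0.216 for numbers 1 to 4, each above the correlation with any other number, so the numbers were taken to pair the libraries. The pairing comes from these values, and the labels give only the numbers. Values in every library are given for genes called in either fit, the 5 with the largest change and the 5 with the highest level, and genes of the wider list are named where called without the block, apart from some called only with it that were chosen after their values were seen. Coordinates are from GENCODE 44 (GRCh38). The members and lists were chosen with earlier results of these data known. The values of 1 gene of the wider list are not reported here.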

Additional observations from a re-analysis of the deposited data

How the results depend on the processing

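Across the 8 fits that each left out a library, without the block, FGB, C1R, C1S, C4BPA, C5, SERPING1 and VWF were called in all 8. FGG and KNG1 were called in 2 of 8, C1RL and CLU in 1 of 8 and FGA in 0 of 8. The change of PLG ranged from -0.22 to 1.18 and was negative when vehicle replicate 2 (-0.22) or EZHi replicate 3 (-0.19) was left out. The change of C3 ranged from -0.015 to 0.19 and was negative without the same libraries (-0.011 and -0.015).

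The replicate block called 14 of the genes higher and 5 lower, and 11 of the wider list in place of 3, and it ended no call. Each number occurs once per group, so the block left every change as it was and could not alter a direction. Of the 7 higher calls, KNG1 was lost without the low-value filter, with quantile normalization and without the trended prior, where 6 genes were called higher each time. With a filter of 1, 6 were called higher because MASP1 was not tested. In the wider list, C1RL missed the threshold with a filter of 1 (limma adjusted p = 0.0503). It also missed it without the low-value filter (limma adjusted p = 0.0584) and without the trended prior (limma adjusted p = 0.0717). Centring on genes of at least 10 estimated FPKM called 5 of the wider list. The following were chosen after seeing the data. The block with quantile normalization gave 17 higher, 3 lower and 8 of the wider list, and the block with that centring gave 17, 3 and 11. The block without number 1 gave 13, 3 and 8, without number 2 it gave 13, 7 and 7, without number 3 it gave 13, 4 and 7, and without number 4 it gave 12, 3 and 7. In these 6 blocked fits F7 and C4BPB were called in 1, C8B in 2, and F12 and CPB2 in 5, while FGA, F5, PLG, CLU, C4A and VTN were called in 6, as were all 8 genes called without the block. The cause of these changes was not tested. Scaling moved the median change of all genes by at most 0.075, and the changes of genes near the filter rest on values that the regularized log has shrunk.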
